A study of Mus musculus with 2 samples.

Results

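Aminoacyl-tRNA synthetases are the enzymes that join each amino acid to its transfer RNA before translation. The 39 genes described here are 20 cytosolic synthetase genes, 16 mitochondrial synthetase genes, whose symbols end in 2, and 3 genes for scaffold proteins of the cytosolic multisynthetase complex. They were taken by symbol from the 30491 genes of the deposited table, and 1 of them, Mars, is listed there as Mars1. All 39 reached 1 FPKM (read fragments normalised for transcript length and sequencing depth, so a level per length) in at least 1 library, as did 12884 genes in all.

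Fibro/adipogenic progenitors, the muscle-resident stromal cells that can form fibroblasts or fat cells, came freshly sorted from wild-type (WT) mice and were cultured in DMEM with fetal bovine serum and antibiotics. For 24 h they received either 1 µM recombinant mouse Musclin, a secreted peptide of muscle, or the same amount of vehicle, and total RNA was sequenced. There was 1 library per group, so no difference below has a replicate check and none was tested. The vehicle column carries the name BSA and was matched to its sample by elimination, so every direction rests on that match. The sources used here do not give the sex or age of the animals, or how many were pooled.

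Most amino acids have separate nuclear genes for the cytosolic and the mitochondrial enzyme, while Gars and Kars each supply both compartments. Synthetases fall into class I and class II by the fold of their catalytic domain, and several cytosolic ones are held in a complex by the scaffold proteins Aimp1, Aimp2 and Eef1e1. The transcription factor ATF4, made when the kinases of the integrated stress response phosphorylate eIF2 alpha, is known in mammalian cells to raise the transcription of many cytosolic synthetase genes together with genes of amino acid synthesis and transport.

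The cytosolic synthetases were mostly lower in the Musclin library than in the vehicle library, and the mitochondrial ones leaned lower by a smaller amount. Of 20 cytosolic genes 12 were at least 1.5-fold lower with Musclin on the log2(FPKM + 1) scale, against 5.20% of all 12884 genes at 1 FPKM or more. Of these, 4 were at least 2-fold lower, against 1.52% of all genes. No cytosolic gene was 1.5-fold or more higher, where 5.65% of all genes were, and none was 2-fold higher, where 1.71% were. A log2 ratio (Musclin over vehicle) below 0 was found in 17 of the 20, against 53.1% of all genes. The median log2 ratio of the cytosolic genes was -0.81, beside -0.02 over all genes, whose 5th to 95th percentile ran from -0.59 to 0.62. The mitochondrial genes had a median of -0.18 with a range from -0.50 to 0.22, and 0 of 16 passed 1.5-fold in either direction, while 12 of 16 were below 0. In a bulk sample, less RNA per cell and fewer cells of a type cannot be told apart.

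Summed over the 20 cytosolic genes, the level was 1026 FPKM with Musclin against 1726 FPKM with vehicle, a ratio of 0.594. Over the 16 mitochondrial genes it was 107 and 120 FPKM, a ratio of 0.890. The 3 scaffold genes summed to 61.0 and 72.5 FPKM, a ratio of 0.842. The cytosolic sum was thus the one that stood farthest from even.

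**Figure D1:**
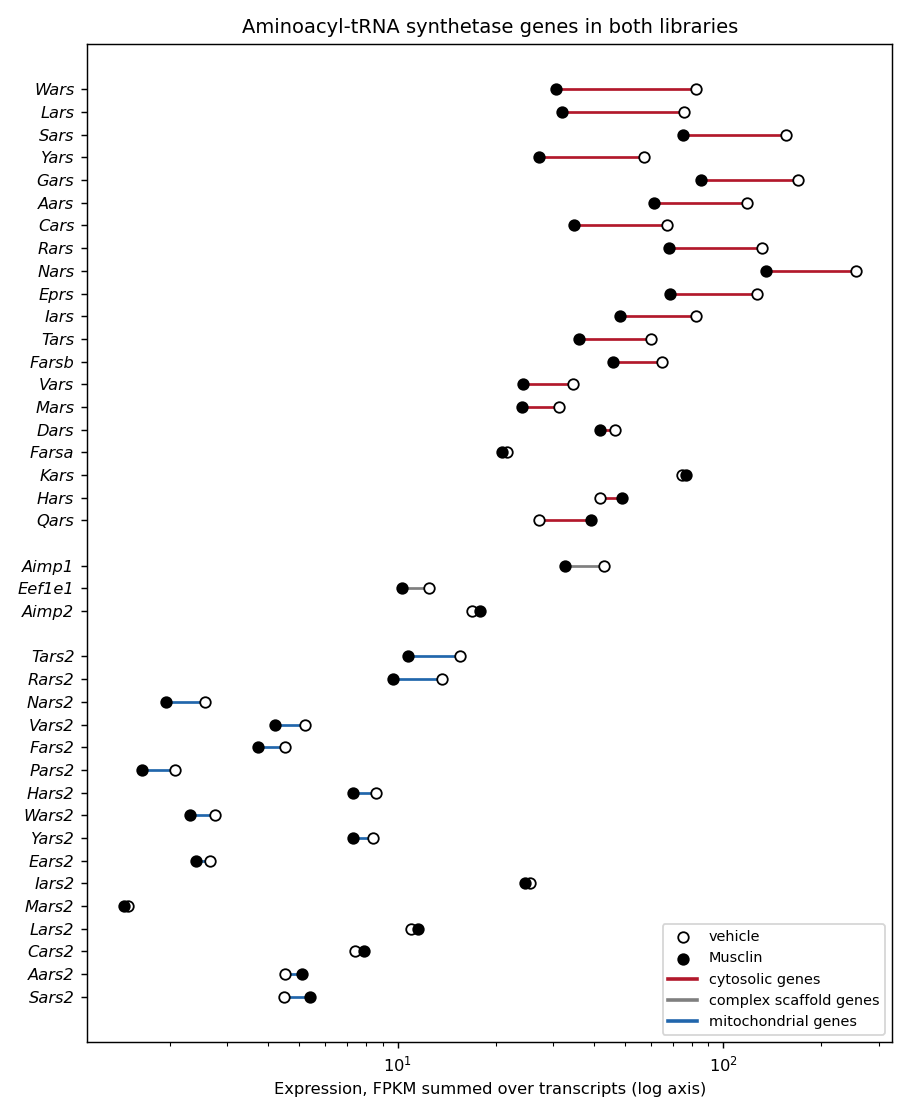
Level of each gene in FPKM, summed over its transcripts, on a log axis. Filled points are the Musclin library and open points the vehicle library, 1 library each, and line colours give the group. The cytosolic genes lie between 20.9 and 255 FPKM, with 17 of 20 lower with Musclin, while the mitochondrial genes lie between 1.44 and 25.4 FPKM.

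Wars, the tryptophanyl-tRNA synthetase, had the lowest log2 ratio of the 39 genes. Its level was 30.6 FPKM with Musclin against 82.4 FPKM with vehicle, a log2 ratio of -1.40, or 2.63-fold lower. The ratio of aligned bases was 0.365, with a 95% exact Clopper-Pearson interval from 0.346 to 0.385, which here and below covers counting error only. Lars, the leucyl-tRNA synthetase, also reported as a leucine sensor for mTORC1, stood at 32.0 FPKM with Musclin against 76.0 FPKM with vehicle, a log2 ratio of -1.22. Its base ratio was 0.417 (interval 0.399 to 0.436). Sars, which charges serine tRNA, including the one that later carries selenocysteine, stood at 75.3 and 155.9 FPKM, a log2 ratio of -1.04. Yars, the tyrosyl-tRNA synthetase, stood at 27.3 and 57.3 FPKM, also a log2 ratio of -1.04. These were the 4 genes past 2-fold. In the GRCm38 mouse genome Wars lies at chr12:108860030-108894174 on the minus strand, Sars at chr3:108424865-108445209 on the minus strand and Yars at chr4:129189760-129219607 on the plus strand.

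A second set of 8 cytosolic genes lay between 1.5-fold and 2-fold lower with Musclin. Gars, the glycyl enzyme of both compartments, stood at 85.6 FPKM with Musclin against 169.6 FPKM with vehicle (log2 ratio -0.98). Aars, the alanyl enzyme, stood at 61.2 and 118.5 FPKM (log2 ratio -0.94). Cars, the cysteinyl enzyme, stood at 34.7 and 67.4 FPKM (log2 ratio -0.94). These 3 were just short of the 2-fold mark, with base ratios of 0.506 (0.488 to 0.524), 0.514 (0.500 to 0.528) and 0.516 (0.488 to 0.545) in that order.

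Rars, the arginyl enzyme, stood at 68.3 FPKM with Musclin against 131.7 FPKM with vehicle (log2 ratio -0.94). Nars, the asparaginyl enzyme, was the most abundant of the 39 in both libraries, at 135 FPKM with Musclin against 255 FPKM with vehicle (log2 ratio -0.91). Eprs, a single protein that charges both glutamate and proline tRNA, stood at 68.8 and 126.7 FPKM (log2 ratio -0.87). All 3 were among the 6 most abundant cytosolic genes of the vehicle library. Iars, the isoleucyl enzyme, stood at 48.4 and 82.5 FPKM (log2 ratio -0.76). Tars, the threonyl enzyme, stood at 36.1 and 60.2 FPKM (log2 ratio -0.72), the smallest difference of the 12.

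The remaining 8 cytosolic genes lay within 1.5-fold. Farsb, the beta subunit of the phenylalanyl enzyme, was at 45.8 FPKM with Musclin against 65.1 FPKM with vehicle (log2 ratio -0.50), whereas Farsa, its catalytic alpha subunit, was at 20.9 and 21.7 FPKM (log2 ratio -0.05). Vars, the valyl enzyme, was at 24.2 and 34.6 FPKM (log2 ratio -0.49). Mars, the methionyl enzyme that also serves initiation, was at 24.1 and 31.3 FPKM (log2 ratio -0.36). Farsb and Vars were the lower genes nearest to the 1.5-fold mark, which is 0.58 on the log2 scale in either direction.

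Dars, the aspartyl enzyme, was at 41.8 FPKM with Musclin against 46.4 FPKM with vehicle (log2 ratio -0.15). Kars, the lysyl enzyme, was at 77.1 and 74.9 FPKM (log2 ratio 0.04). Hars, the histidyl enzyme, was at 48.9 and 41.7 FPKM (log2 ratio 0.22). Qars, the glutaminyl enzyme, was at 39.3 and 27.2 FPKM (log2 ratio 0.52), the highest ratio of the 39 and the gene within 1.5-fold that came nearest to that mark. For Farsa and Kars the counting interval of the base ratio held 1, from 0.856 to 1.03 and from 0.973 to 1.07. For Hars and Qars it lay above 1, from 1.11 to 1.26 and from 1.37 to 1.55, and for the other 16 cytosolic genes it lay below 1.

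**Figure D2:**
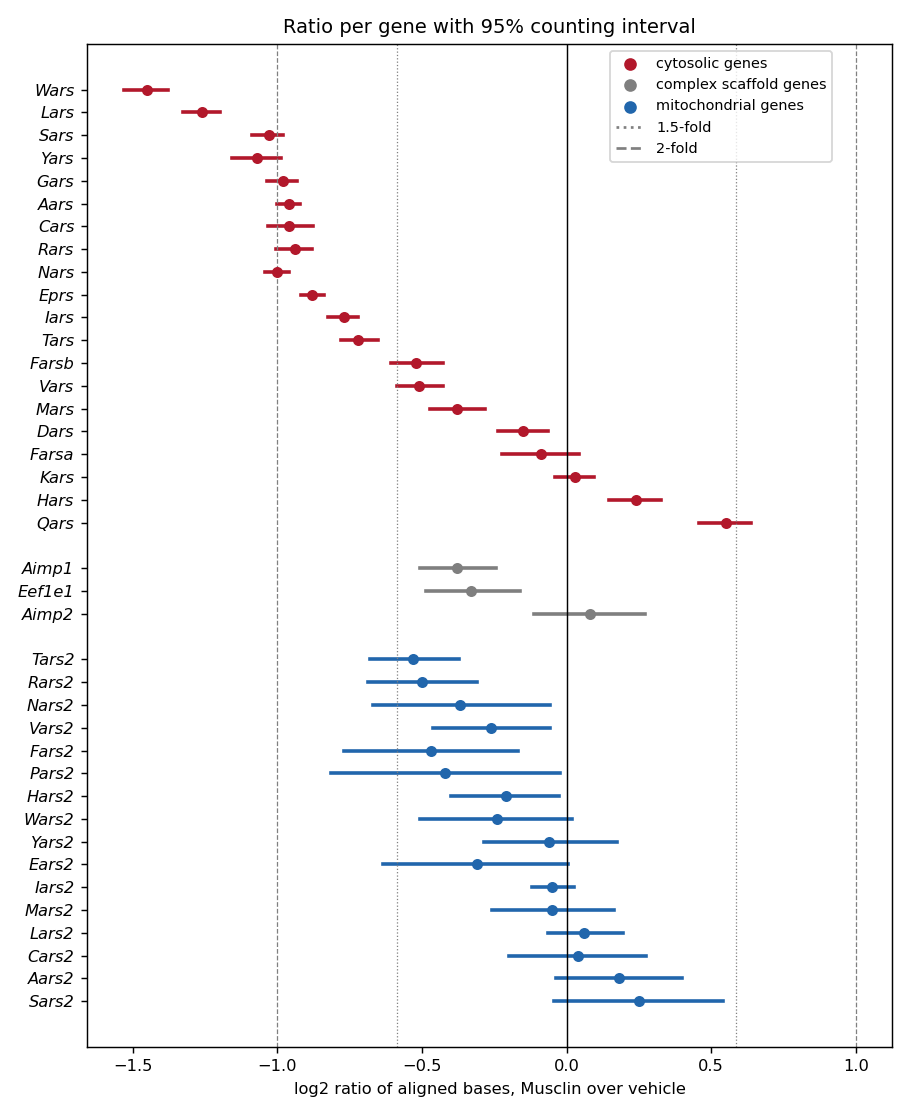
Log2 ratio of aligned bases per gene, Musclin over vehicle, with lines for the 95% exact Clopper-Pearson interval, which covers counting error only. Dotted lines mark 1.5-fold and dashed lines 2-fold. Cytosolic intervals lie below 0 in 16 of 20 genes, and mitochondrial intervals are mostly wider and hold 0 in 9 of 16.

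The mitochondrial enzymes were expressed at far lower levels, with a median of 4.87 FPKM in the vehicle library against 71.1 FPKM for the cytosolic ones. Iars2 was the most abundant, at 24.7 FPKM with Musclin against 25.4 FPKM with vehicle (log2 ratio -0.04). The lowest ratios were those of Tars2, at 10.7 and 15.6 FPKM (log2 ratio -0.50), and Rars2, at 9.66 and 13.7 FPKM (log2 ratio -0.46). The highest was that of Sars2, at 5.38 and 4.48 FPKM (log2 ratio 0.22), followed by Aars2 at 5.08 and 4.53 FPKM (log2 ratio 0.14). Both were above even where their cytosolic partners were below, with base-ratio intervals that held 1 (0.970 to 1.46 for Sars2 and 0.976 to 1.32 for Aars2).

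Lars2 was at 11.5 FPKM with Musclin against 11.02 FPKM with vehicle (log2 ratio 0.06), and Cars2 at 7.86 and 7.41 FPKM (log2 ratio 0.08). Hars2 was at 7.29 and 8.59 FPKM (log2 ratio -0.21), and Yars2 at 7.32 and 8.41 FPKM (log2 ratio -0.18). The other 7 mitochondrial genes, Ears2, Fars2, Mars2, Nars2, Pars2, Vars2 and Wars2, had log2 ratios between -0.27 and -0.03 and levels between 1.44 and 5.21 FPKM. Counting intervals of the base ratio lay below 1 for 7 mitochondrial genes, above 1 for none, and held 1 for 9. The number of reads was small for some: Pars2, the prolyl enzyme, rested on 95 fragment equivalents with Musclin and 128 with vehicle, whereas Aars rested on 7705 and 15143.

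In 14 of 15 pairs of a cytosolic and a mitochondrial enzyme for the same amino acid, the cytosolic gene had the lower log2 ratio. Eprs enters 2 of these pairs, with Ears2 and with Pars2. The median of the differences in log2 ratio, cytosolic minus mitochondrial, was -0.72. The widest differences were in Lars and Lars2 (-1.28), Sars and Sars2 (-1.26), Wars and Wars2 (-1.21), and Aars and Aars2 (-1.08). The narrowest were in Tars and Tars2 (-0.22) and in Vars and Vars2 (-0.24). The exception was the histidyl pair, in which Hars minus Hars2 was 0.43. The phenylalanyl enzymes were left out of the pairs because the cytosolic one has 2 subunit genes. Their log2 ratios lay on both sides of that of Fars2 (-0.23), with Farsa at -0.05 and Farsb at -0.50.

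Because FPKM is scaled to length, the levels within a pair can also be set side by side. In the vehicle library the cytosolic gene was between 3.24 times (Iars) and 99.7 times (Nars) its partner, with a median of 9.61. In the Musclin library this ranged from 1.96 times (Iars) to 69.5 times (Nars), with a median of 7.07. The ratio of levels was smaller with Musclin in 14 pairs, the same 14 in which the cytosolic log2 ratio was lower. Both counts come from the same FPKM values, so the match restates that result and adds no support. For Lars and Lars2 the ratio of levels was 6.90 with vehicle and 2.78 with Musclin.

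**Figure D3:**
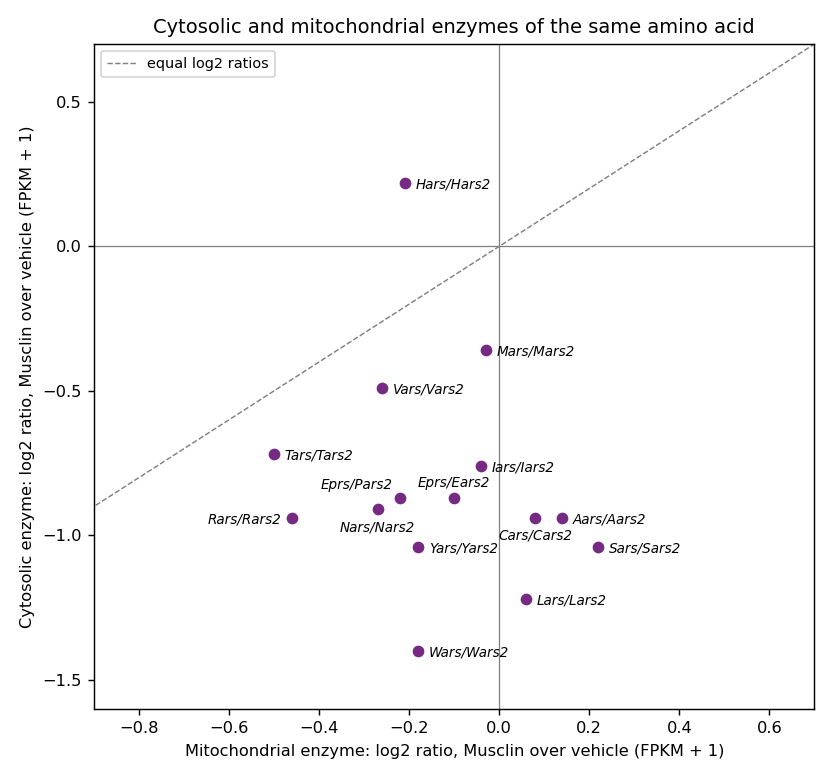
Log2 ratio (Musclin over vehicle, FPKM + 1) of the cytosolic enzyme against that of the mitochondrial enzyme for the same amino acid, 1 point per pair. Of 15 pairs, 14 lie below the dashed line of equal ratios, and Hars with Hars2 lies above it.

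Within the cytosolic set, the groups known from biochemistry overlapped in their ratios. Class I genes had a median log2 ratio of -0.90, with 7 of 10 at least 1.5-fold lower, and class II genes a median of -0.61, with 5 of 10. The share of all genes at least 1.5-fold lower was 5.20%. Eprs, which holds a class I and a class II enzyme, was counted in class I. The 8 synthetases of the multisynthetase complex had a median of -0.56 and a range from -1.22 (Lars) to 0.52 (Qars), with 4 of 8 at least 1.5-fold lower, namely Eprs, Iars, Lars and Rars. Of the 12 cytosolic genes outside the complex, 8 were at least 1.5-fold lower, with a median of -0.92. The proteins of the complex are known to be held together as 1 particle, and the ratios of their mRNAs lay on both sides of even.

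None of the scaffold genes passed 1.5-fold. Aimp1, whose product is also the precursor of a secreted cytokine, was at 32.8 FPKM with Musclin against 43.1 FPKM with vehicle (log2 ratio -0.39). Eef1e1, known as AIMP3, was at 10.3 and 12.5 FPKM (log2 ratio -0.25). Aimp2, the scaffold that binds the lysyl and aspartyl enzymes, was at 17.9 and 16.9 FPKM (log2 ratio 0.08). Of its exon bases, 29.4% overlap Eif2ak1 on the opposite strand, and without strand information reads there cannot be assigned to either gene.

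Among the cytosolic genes, 12 have been reported as ATF4 targets in other mammalian cells: Aars, Cars, Eprs, Gars, Iars, Lars, Mars, Nars, Sars, Tars, Wars and Yars. Of these, 11 were at least 1.5-fold lower with Musclin, against 5.20% of all genes, and Mars was the exception. The 12 had a median log2 ratio of -0.94 and a range from -1.40 to -0.36. Of the 8 other cytosolic genes, 1 was at least 1.5-fold lower, Rars, and their median was -0.10. The summed level of the 12 was 659.5 FPKM with Musclin against 1283 FPKM with vehicle, and that of the other 8 was 366 and 443 FPKM.

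A list of 20 further genes, none of them a synthetase, was lower still. It holds reported ATF4 targets and also Atf4 itself, at 69.0 FPKM with Musclin against 151.8 FPKM with vehicle (log2 ratio -1.13). Of the 20, 19 were at least 2-fold lower, against 1.52% of all genes, and the median log2 ratio of the list was -1.52. The exception was Cebpb, at 1.53 and 1.85 FPKM (log2 ratio -0.17). Trib3, a pseudokinase that binds ATF4, was at 4.91 FPKM with Musclin against 42.7 FPKM with vehicle. Chac1, a glutathione-degrading enzyme, was at 4.57 and 35.4 FPKM. Slc7a5, a subunit of the large neutral amino acid transporter, was at 12.4 and 81.4 FPKM. Ddit3, the stress transcription factor CHOP, was at 26.2 and 126.4 FPKM. The log2 ratios of these 4 genes, between -2.89 and -2.23, lay beyond that of any synthetase. Both lists of ATF4 targets were chosen with earlier results of these data known. The part of ATF4 in the differences was not tested.

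**Figure D4:**
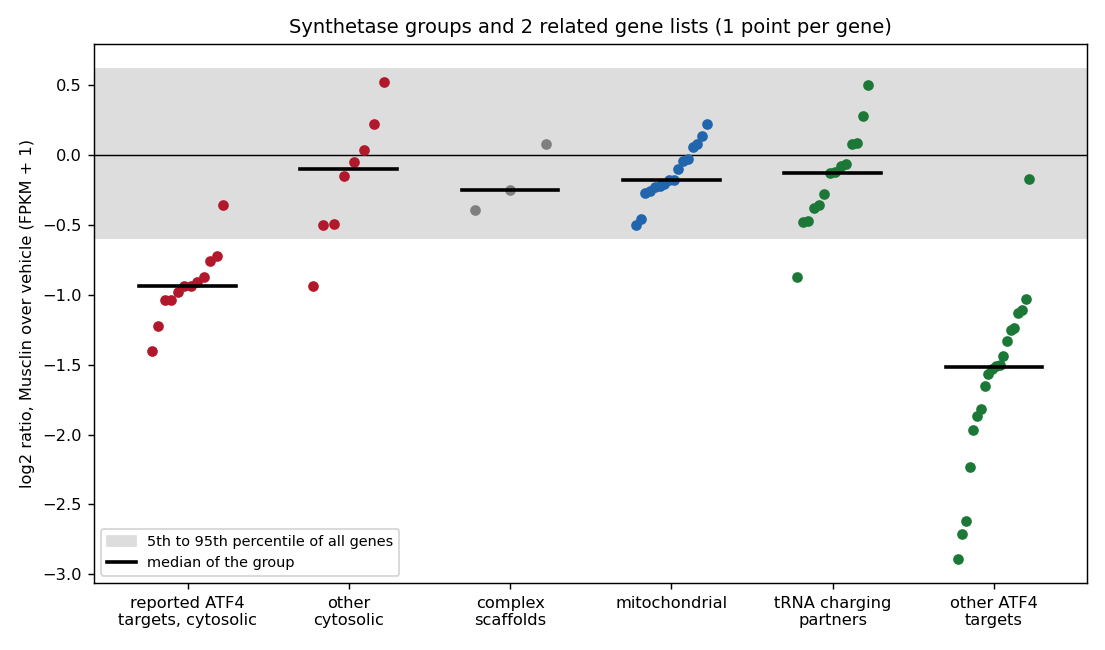
Log2 ratio (Musclin over vehicle, FPKM + 1) of each gene by group, with the group median as a black bar and the 5th to 95th percentile of all 12884 genes in grey. The cytosolic genes reported as ATF4 targets have a median of -0.94, the other cytosolic genes -0.10 and the mitochondrial genes -0.18. The group labelled other ATF4 targets, which includes Atf4 itself, has a median of -1.52.

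Promoter sequences were searched for C/EBP-ATF response elements, the known binding sites of ATF4. The motif searched was TGATGNAA on both strands, in RefSeq windows from 250 bases before to 50 bases after each annotated start (GRCm38.p6). It was found in 3.97% of 32851 such windows and in at least 1 window of 4.51% of 27025 genes. Of the 39 genes 30 had a window. The motif was in 5 of 13 cytosolic genes, in 0 of 14 mitochondrial genes and in 0 of 3 scaffold genes. The 60 bases around each match are shown because these are the synthetase promoters that hold it, in the direction of transcription, with the motif or its reverse complement in capitals.
Yars, chr4:129189873-129189932, plus strand: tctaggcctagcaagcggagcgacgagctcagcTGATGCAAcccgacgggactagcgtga
Gars, chr6:55037945-55038004, plus strand: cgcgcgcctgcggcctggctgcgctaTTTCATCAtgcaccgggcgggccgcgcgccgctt
Aars, first match, chr8:111033704-111033763, plus strand: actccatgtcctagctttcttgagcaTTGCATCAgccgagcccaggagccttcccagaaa
Aars, second match, chr8:111033812-111033871, plus strand: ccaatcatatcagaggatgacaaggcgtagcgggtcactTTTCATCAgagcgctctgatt
Iars, chr13:49682100-49682159, plus strand: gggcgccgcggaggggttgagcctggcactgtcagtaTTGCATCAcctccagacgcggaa
Tars, chr15:11399640-11399699, minus strand: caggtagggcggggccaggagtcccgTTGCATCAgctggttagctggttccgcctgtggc

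The 5 cytosolic genes with the motif had log2 ratios between -1.04 and -0.72. The 8 cytosolic genes with a window and no match ranged from -1.04 to 0.52, so the ranges overlapped. Both Aars matches and those of Gars, Iars and Tars were of the reverse complement. Of the related motifs TGACGNAA and TGACGTCA, present in 1.59% and 1.79% of all windows, the former was found in Nars2 and the latter in none of the 30 genes with a window. A match is a description of the letters and not a measured binding site.

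The levels of individual transcripts, which are estimates where transcripts share exons, moved in different directions within some genes. For Wars, 3 transcripts begin in an upstream first exon, which is 106 bases long (chr12:108894069-108894174) in the leading transcript ENSMUST00000109848 and shorter, with a later start, in the others. A further 2 begin at an internal first exon, 39 bases long in ENSMUST00000161410 (chr12:108893160-108893198), whose start lies 976 bases from that of the leading transcript. The upstream transcripts summed to 25.03 FPKM with Musclin against 77.6 FPKM with vehicle, a base ratio of 0.322 (0.304 to 0.341). The internal ones summed to 5.26 FPKM with Musclin against 3.41 FPKM with vehicle, a base ratio of 1.54 (1.27 to 1.86). The upstream first exon thus accounted for 81.7% of the gene's FPKM with Musclin and 94.2% with vehicle. Both base-ratio intervals treat estimated transcript levels as counts, and they leave out the error of dividing shared reads between transcripts. Human WARS is known to be induced by interferon.

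For Kars, the gene-level ratio near 0 combined reading frames that differed. The transcript with the cytosolic frame of 595 codons (ENSMUST00000034426) was at 62.7 FPKM with Musclin against 53.9 FPKM with vehicle, a base ratio of 1.16 (1.10 to 1.23). The transcripts with the mitochondrial frame of 624 codons, which include an additional exon, summed to 14.2 and 20.9 FPKM, a base ratio of 0.673 (0.610 to 0.742). Their share of the gene's FPKM was 18.4% with Musclin and 27.9% with vehicle. The difference lay in ENSMUST00000164470, at 2.17 FPKM with Musclin against 9.97 FPKM with vehicle, while ENSMUST00000093120 was at 12.02 and 10.9 FPKM. As for Wars, the intervals leave out the error of dividing shared reads between transcripts. The coding bases that set both frames apart are shown because they decide which compartment the enzyme reaches. They run from the start codon in capitals to the end of that exon, on the minus strand of GRCm38, and were read from the GENCODE transcripts. Most of the cytosolic stretch also lies in the first exon of both mitochondrial-frame transcripts (chr8:112011210-112011266), ahead of their start codon and so untranslated.
Kars cytosolic frame, chr8:112011210-112011268: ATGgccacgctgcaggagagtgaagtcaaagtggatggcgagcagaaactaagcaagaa
Kars mitochondrial frame, chr8:112008207-112008352: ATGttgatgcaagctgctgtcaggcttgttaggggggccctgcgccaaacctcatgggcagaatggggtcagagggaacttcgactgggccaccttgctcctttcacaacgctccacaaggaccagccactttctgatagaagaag

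In Tars and Nars, some transcripts annotated as targets of nonsense-mediated decay (NMD, the removal of mRNAs with an early stop codon) were higher with Musclin while the main coding transcript was lower. The coding transcript of Tars, ENSMUST00000022849, had a log2 ratio of -1.04, beyond the -0.72 of the whole gene. Its NMD transcript ENSMUST00000228814 was at 7.66 FPKM with Musclin against 0.247 FPKM with vehicle. Coding transcripts made up 75.7% of the FPKM of Tars with Musclin and 95.3% with vehicle.

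Nars had a pair of coding transcripts of similar level in the vehicle library that parted with Musclin. ENSMUST00000025483 was at 26.2 FPKM with Musclin against 114 FPKM with vehicle, and ENSMUST00000237400 was at 79.3 and 111 FPKM. Its NMD transcripts went both ways. ENSMUST00000235647 was at 11.1 and 4.82 FPKM and ENSMUST00000236463 at 3.25 and 0.0945 FPKM, while ENSMUST00000237369, the most abundant of them with vehicle, was at 1.95 and 7.92 FPKM. These coding transcripts share most of their exon bases, so the split of reads between them is uncertain. For the whole gene the base ratio was 0.499 (0.486 to 0.514).

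Farsa showed a similar division at a lower level. Its transcript ENSMUST00000003906 was at 3.12 FPKM with Musclin against 8.19 FPKM with vehicle, ENSMUST00000109754 at 7.42 and 5.29 FPKM, and the NMD transcript ENSMUST00000156970 at 5.82 and 0.920 FPKM. Coding transcripts were 50.4% of its FPKM with Musclin and 62.1% with vehicle. In Qars, the retained-intron transcript ENSMUST00000207126 was at 14.6 FPKM with Musclin against 8.56 FPKM with vehicle, beside 21.4 and 16.3 FPKM for the main coding transcript ENSMUST00000006838. Qars was therefore higher with Musclin in both of its leading transcripts. In Mars, a retained-intron transcript, ENSMUST00000145275, was at 3.68 and 8.85 FPKM, and the coding transcript ENSMUST00000037290 at 14.4 and 16.8 FPKM.

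**Figure D5:**
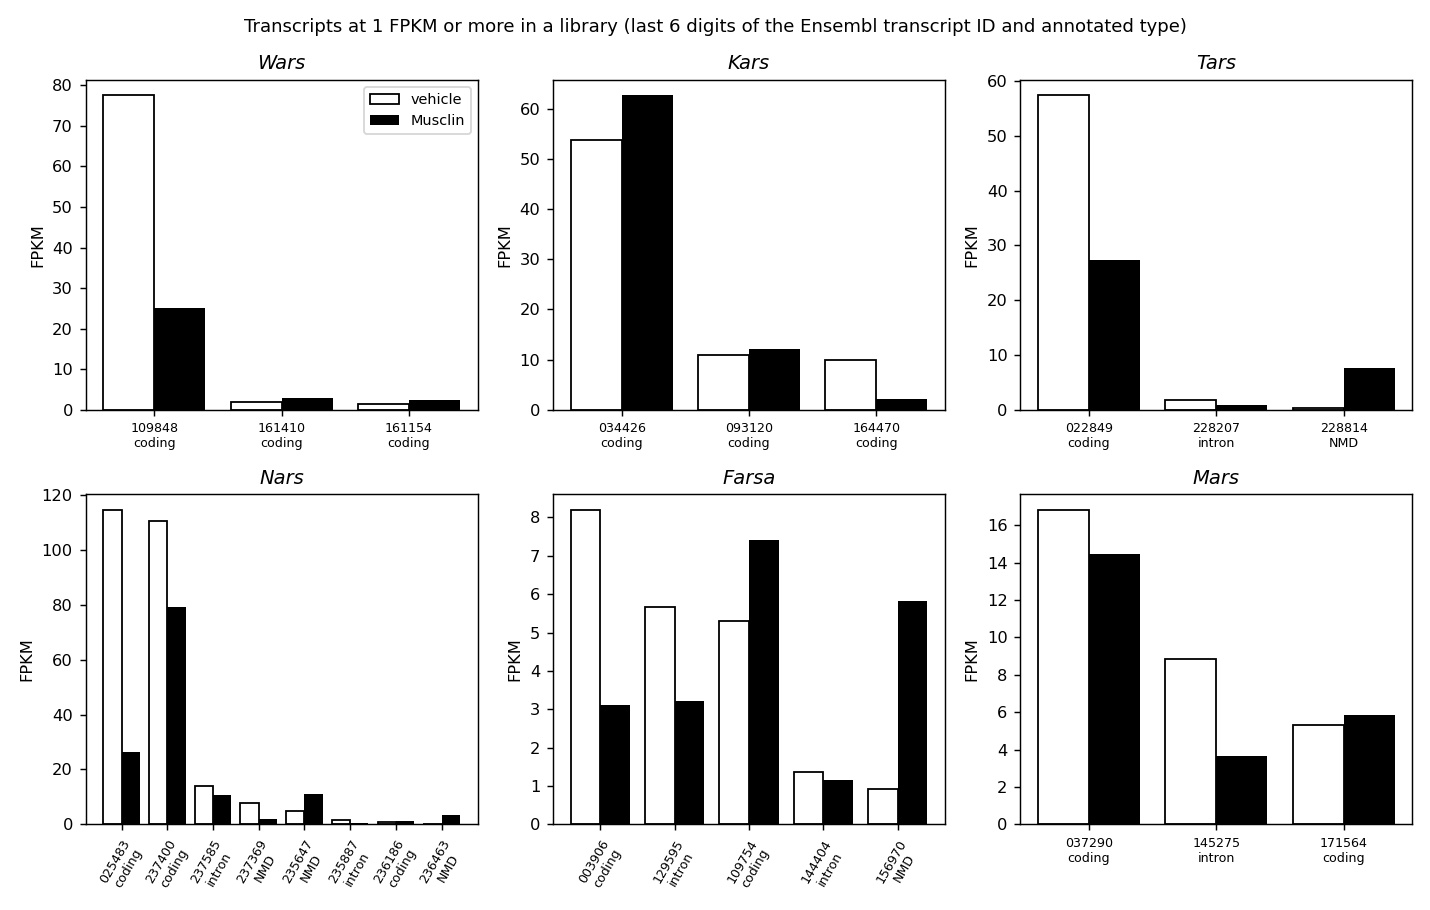
FPKM of each transcript at 1 FPKM or more in a library, for 6 genes, with white bars for vehicle and black bars for Musclin, 1 library each. In Wars, Tars and Nars the leading bars are shorter with Musclin, while the NMD transcripts ENSMUST00000228814 of Tars (7.66 against 0.247 FPKM) and ENSMUST00000156970 of Farsa (5.82 against 0.920 FPKM) are taller.

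The authors' deposited table marks transcripts as significant, and the sources used here do not give the test. In the authors' deposited table, 13 of 154 cytosolic synthetase transcripts were marked lower with Musclin (8.44%), in 11 genes, against 1.72% of all 88702 transcripts. The 11 include Farsa, Kars and Mars, which lay within 1.5-fold as whole genes. They also include Aars, marked only in a retained-intron transcript at 0.234 FPKM with Musclin against 0.477 FPKM with vehicle. Eprs, Gars, Iars and Rars, past 1.5-fold lower as whole genes, held no marked transcript. A further 3 cytosolic transcripts were marked higher in the authors' deposited table (1.95%), against 1.69% of all transcripts. These were the NMD transcripts ENSMUST00000156970 of Farsa, ENSMUST00000235647 of Nars and ENSMUST00000228814 of Tars. Another NMD transcript of Nars, ENSMUST00000237369, was marked lower in the authors' deposited table (fold 0.247). Of 49 protein-coding cytosolic transcripts, 10 were marked lower (20.4%) and 0 higher in the authors' deposited table. Over all transcripts there, of any type, these shares were 1.72% and 1.69%. The shares over all protein-coding transcripts were not worked out. Of 103 mitochondrial transcripts, 2 were marked lower (1.94%) and 1 higher (0.971%) in the authors' deposited table. The former share is not far above that of all transcripts, and the latter is below it. Of 13 scaffold transcripts none was marked.

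The leading transcript carried a mark in the authors' deposited table for the cytosolic genes Lars, Sars, Tars, Wars and Yars and for the mitochondrial gene Fars2. For ENSMUST00000109848 of Wars, the authors' deposited table gives a fold of 0.322 and a q-value of 3.5e-13. For ENSMUST00000097590 of Lars, the authors' deposited table gives a fold of 0.415 and a q-value of 2.4e-08. The leading transcript of Aars, ENSMUST00000034441, is not marked in the authors' deposited table, where its fold is 0.512 and its q-value 3.4e-05. Every transcript of these genes that is marked there is past 2-fold, which this one is not. With 1 library per group, the q-values of the authors' deposited table cannot rest on replicate spread. Among the mitochondrial genes, the marks in the authors' deposited table fall on Fars2 (ENSMUST00000021857, fold 0.477) and Iars2 (ENSMUST00000153211, fold 0.499) as lower, and on Yars2 (ENSMUST00000159962, fold 2.17) as higher. All of these genes lay within 1.5-fold as a whole. In Fars2 another coding transcript, ENSMUST00000224611, was at 1.40 FPKM with Musclin against 0 with vehicle. The marked Iars2 transcript retains an intron and was at 0.400 and 0.801 FPKM, beside 23.3 and 24.1 FPKM for its leading coding transcript.

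Genes that work beside the synthetases were mostly near even. Of 14 genes for tRNA charging partners, 1 was at least 1.5-fold lower, against 5.20% of all genes, and none 1.5-fold higher, against 5.65%. Their median log2 ratio was -0.12, with 10 below 0 and 4 above. That gene was Xpot, the exportin that carries tRNA out of the nucleus, at 24.8 FPKM with Musclin against 46.0 FPKM with vehicle (log2 ratio -0.87). Trnt1, which adds the CCA end to tRNA, was at 21.6 and 30.6 FPKM (log2 ratio -0.48). Gatc, a subunit of the mitochondrial amidotransferase that makes glutaminyl-tRNA, was at 11.5 and 16.3 FPKM (log2 ratio -0.47). Sepsecs, which completes selenocysteinyl-tRNA, was at 3.95 and 5.45 FPKM (log2 ratio -0.38). On the other side, and below 5 FPKM in both libraries, were Prorsd1 at 4.24 and 2.70 FPKM (log2 ratio 0.50) and Gatb at 3.14 and 2.41 FPKM (log2 ratio 0.28).

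Ribosomal protein genes, the other large set of the translation machinery, had medians near that of all genes. The median log2 ratio was -0.09 over 84 cytosolic ribosomal protein genes and -0.04 over 78 mitochondrial ones. Log2 ratios below 0 were found in 63 of the 84 and in 43 of the 78, against the 53.1% of all genes. In each list 2 genes were at least 1.5-fold lower, against 5.20% of all genes. At least 1.5-fold higher were 2 cytosolic and 1 mitochondrial, against 5.65% of all genes. The members farthest from even were Rps27, at 8.94 FPKM with Musclin against 31.2 FPKM with vehicle, and Rpl7a, at 183 and 105 FPKM.

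The Musclin library held 6.69 Gb of aligned bases and the vehicle library 6.76 Gb. Of 9 progenitor markers, among them Pdgfra and Ly6a, 8 reached 1 FPKM in both libraries, and their levels summed to 1188 FPKM with Musclin against 1181 FPKM with vehicle. Single markers lay far apart in both directions, with Dcn at 181 and 64.8 FPKM and Cd34 at 29.8 and 14.5 FPKM, but Osr1 at 15.1 and 34.8 FPKM and Col3a1 at 233 and 392 FPKM. Adipocyte markers summed to 129 and 194 FPKM, with 3 of 4 at 1 FPKM or more in both libraries, and mural markers to 21.5 and 28.9 FPKM, with 3 of 5. Leukocyte markers summed to 13.9 and 18.6 FPKM, with 2 of 7 measured at 1 FPKM or more, and endothelial markers to 3.08 and 5.44 FPKM, with 1 of 5. Myogenic markers summed to 0.738 and 1.36 FPKM and glial markers to 0.659 and 0.898 FPKM, with none at 1 FPKM in both libraries. Myog and Sox10 were listed at 0 in the vehicle library. The part of these cell types in the synthetase differences was not tested.

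Several synthetase genes share exon bases with a neighbour on the opposite strand, and the sources used here do not say whether counting used strand. Mars shares 68 bases with Ddit3. Hars and Hars2 share 195 bases, Fars2 shares 501 bases with Nrn1 (35.8 FPKM with Musclin against 11.1 FPKM with vehicle), and Iars2 shares 2034 bases, 22.9% of its exon bases, with Rab3gap2. Aars shares 1326 bases, 14.3% of its exon bases, with Exosc6 on the same strand, where strand could not separate them, and Exosc6 was listed at under 0.1 FPKM in both libraries. Without strand, reads in the other stretches cannot be assigned to either gene.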

How the data were processed

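RNA-seq of 2 libraries, 1 per group, was taken as a table of transcripts. Per the file headers, the authors deposited FPKM per transcript and condition, a fold (the ratio of both FPKM values), and p-values and q-values. Per the submitters' processing notes, StringTie, DESeq2 and edgeR were used, with roles and versions not stated. The sources used here name no aligner or build. Of 270 transcripts of these genes, 269 had the same start and end in GENCODE vM21 (GRCm38), whose positions are printed.

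FPKM was summed per gene. Log2 ratios used a pseudocount of 1 FPKM, which understates differences of low genes, and genes with 1 FPKM or more in a library were counted past 1.5-fold and 2-fold. No test was run. Depth came from single-exon genes, where FPKM times length gave whole bases (within 0.1) for 73.8% of 4353 Musclin and 74.0% of 4282 vehicle values. Dividing by 298 bases, a read pair, gave 22456769 and 22676997 fragment equivalents for the counting intervals. Totals 2 times as large would also give whole numbers, and the smaller, with wider intervals, was used. Ratios and depth were tested on simulated data. Members, lists and the rule for named genes (all members, and up to 4 per other list, those farthest from even at 5 FPKM or more) were chosen with earlier results of these data known. Musclin was matched to its column by name and vehicle to the BSA column by elimination. Alternatives were other pseudocounts, scalings, floors and transcript choices, aligned bases, and leaving out Gars and Kars. Python 3.11.15, pandas 2.3.3, numpy 2.4.6, scipy 1.17.1 and matplotlib 3.10.9 were used.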

Additional observations from a re-analysis of the deposited data

How the results depend on the processing

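The cytosolic median stayed below 0 under 10 alternatives, between -0.90 and -0.77. The mitochondrial median stayed below 0 under the 9 that apply to it. It moved from -0.18 to -0.09 both with a pseudocount of 5 FPKM and when coding transcripts were counted alone. At a floor of 5 FPKM it was -0.11. It moved the other way to -0.22 with a pseudocount of 0.1 FPKM and to -0.23 with the ratio of aligned bases. The count of cytosolic genes at least 2-fold lower ran from 3 (pseudocount of 5 FPKM) to 6 (protein-coding transcripts) around the 4 reported. The 12 cytosolic genes past 1.5-fold remained at least 1.5-fold lower under each alternative that held them, except Nars with its leading transcript alone (log2 ratio -0.48). The difference of the cytosolic and mitochondrial medians was nearest to 0 with the ratio of aligned bases, at -0.60 in place of -0.63. With protein-coding transcripts alone it was -0.81, and Tars was at -1.04. With the leading transcript alone, 2 mitochondrial genes, Fars2 (-0.80) and Tars2 (-0.73), were past 1.5-fold in place of 0. The sign changed for Farsa under the leading transcript (0.42), and for Cars2 (-0.04) and Ears2 (0.18) under both of these settings. These settings count other transcripts, and the cause was not tested further. No paired analysis was possible because each group has 1 library. Depth limits the mitochondrial genes most, and no replicate spread is known.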
